A study of Mus musculus with 2 samples.

Results

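Primitive red blood cells made up 1093 of the 21968 cells kept from E13.5 mouse eyecups. They were taken as the cells in which 7 globin genes held at least 60% of the unique molecular identifiers (UMIs, the tags that count captured mRNA molecules) and in which the embryonic β-like transcripts Hbb-y and Hbb-bh1 together exceeded the adult transcripts Hbb-bs and Hbb-bt. Cells were kept when they had more than 200 and fewer than 6000 detected genes and under 20% mitochondrial UMIs. The control library held 809 primitive cells among 9822 kept cells, and the DKO library held 284 among 12146. Because the cells were chosen on measured globin counts, the globin values are a description of the choice, and the non-globin genes carry the comparisons.

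Each genotype was represented by 1 library, made from the eyecups of a single E13.5 embryo with retina, lens and blood. The control embryo was Six3+/-;Six6+/- and its DKO littermate was Six3F/F;Six6-/-;a-Cre, recognised by GFP-positive rosettes in its retinas. In the DKO embryo Six6 was missing from the germline, whereas α-Cre removed Six3 in the peripheral retina. The control carried no α-Cre, and its Six3 null allele was an already recombined floxed copy that it had inherited. Levels are given as CPM, the UMIs of a gene scaled to a non-globin total of 1000000. Six6 stood at 280.2 CPM in control cells under 10% globin and at 43.95 CPM in DKO cells, while Six3 stood at 344 and 334 CPM. The library counts only the ends of transcripts, where the paper reports reduced coverage of both genes in bulk RNA of mutant retinas. The cells pooled here include central retina, where Six3 remained, and the control itself carried a Six3 null allele. These levels therefore check the alleles only in part. The paper found Six3 mRNA reduced much more in Cre-positive than in Cre-negative DKO progenitors. With a single library per genotype no test between genotypes was possible, and the 95% intervals in brackets cover counting error only.

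Primitive red blood cells arise in the yolk sac, enter the circulation as large nucleated cells and mature while they circulate. They carry embryonic globins, the β-like Hbb-y (εy) and Hbb-bh1 (βh1) and the α-like Hba-x (ζ), beside adult α-globins. Definitive red blood cells come later from the fetal liver, carry the adult β-globins and lose their nucleus before they enter the blood, so both kinds share the vessels of the embryo at this stage.

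Of the genes known to mark primitive red blood cells, Hbb-y and Hbb-bh1 set the choice and Hba-x entered it through the globin total, so their levels describe the choice and do not test the name. Hba-x took 4.57% of all UMIs in control and 5.09% in DKO primitive cells, against 0.0154% and 0.0173% in definitive cells and 0.00245% and 0.000967% in cells under 10% globin. Hbb-bh1 was seen in 89.99% of control and 88.7% of DKO primitive cells, against 1.03% and 0.244% of cells under 10% globin. A UMI of Hbb-y was also seen in 87.99% and 50.3% of the cells under 10% globin, where it took 0.0377% and 0.0117% of UMIs. Definitive red blood cells, defined here by at least 60% globin with adult β-like transcripts equal to or above the embryonic ones, numbered 257 in control and 265 in DKO and serve as the nearest comparison. Of the 22 cell barcodes present in both libraries, 1 belonged to a primitive cell, and in only 1 of the libraries.

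A small set of control cells stood apart from its library. In the control library Hba-a2, 1 of the 2 adult α-globin genes, held a median of 18.8% of adult α-globin UMIs in 759 primitive cells (8.72% to 25.6%), but only 0.0700% to 0.947% in the other 50. These 50 cells were 6.18% [4.62 to 8.07] of the control primitive cells, and 29 of the 257 control definitive cells (11.3%) stood apart in the same way. In the DKO library 281 of 284 primitive cells and 265 of 265 definitive cells were under 2%, and the 3 exceptions lay at 2.63%, 12.6% and 20.6%. The neighbouring θ-globin gene Hbq1a split along with it, with 138 UMIs in the 759 control cells, 0 in the 50 and 0 in all DKO red blood cells. Of the sex-linked transcripts, Xist had 3 UMIs in the 50 cells and 0 in the 759, and Y-linked genes had 5 and 70. These stood among 374505 and 6835565 UMIs of all genes, so per UMI the Y-linked genes were no lower in the 50. The embryonic share of β-like UMIs was 89.99% in the 50 and 88.6% in the 759. Why these cells differ was not tested. Counts below are repeated without the 50 control and 3 DKO cells where they matter.

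**Figure D1:**
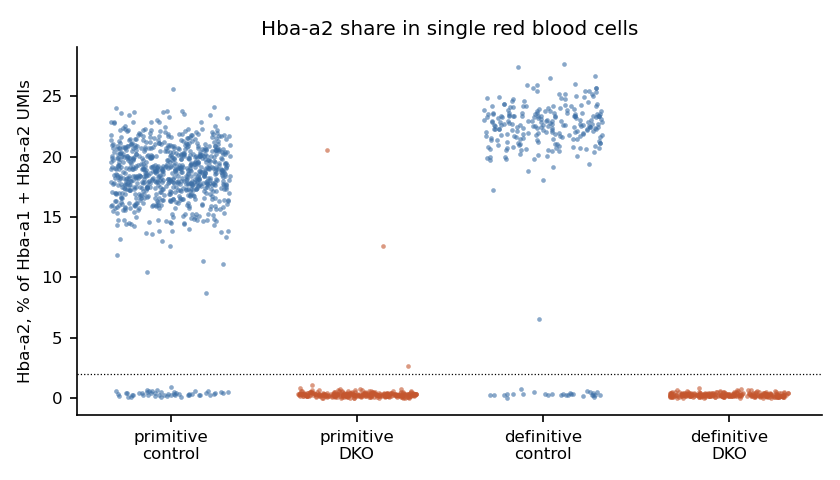
Hba-a2 share of adult α-globin UMIs (y axis, percent) in single red blood cells, 1 point per cell, spread sideways at random within each of 4 groups: primitive control (blue), primitive DKO (orange), definitive control and definitive DKO. Most control primitive cells sit around their median of 18.8%, with 50 primitive and 29 definitive cells under the dotted line at 2%, where all but 3 DKO cells lie.

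Embryonic transcripts dominated the β-like globins of the selected cells. They made up 88.7% of β-like UMIs in control and 89.5% in DKO primitive cells, against 0.443% and 0.306% in definitive cells. The split between the cell kinds was nearly empty. The control cells just inside it had 53.1%, 55.4% and 64.6% embryonic β-like UMIs and the nearest outside had 44.1% and 2.44%. In DKO the cells just inside had 55.1%, 60.2% and 61.8%, and the nearest outside had 44.5% and 6.97%. Near the other limit, 6 control and 9 DKO cells with more embryonic than adult β-globin had 55% to 60% globin, and 9 and 4 had 60% to 65%. The cells of 55% to 60% globin had a median of 1534 genes in control and 1950 in DKO, against 417.5 and 327 in the cells above 65%.

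**Figure D2:**
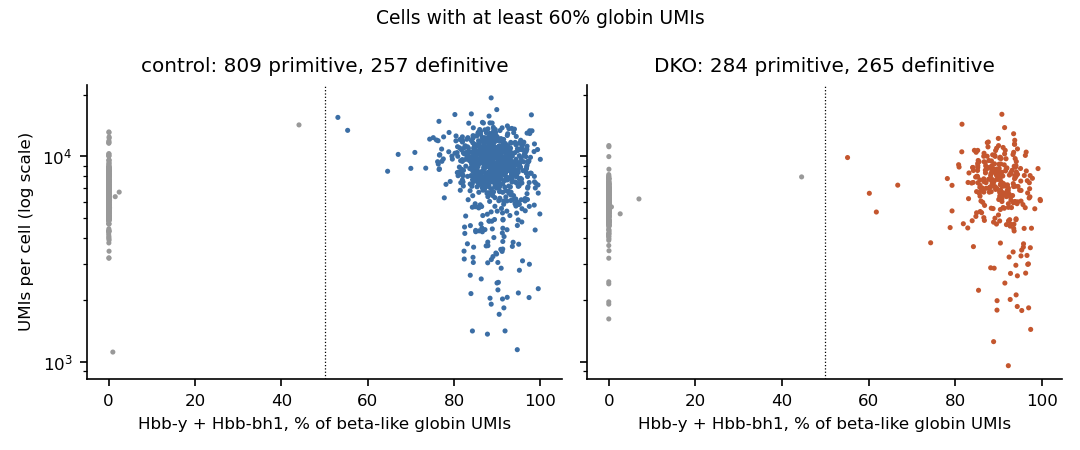
Embryonic share of β-like globin UMIs (x axis, percent) against UMIs per cell (y axis, log scale) for cells with at least 60% globin, control on the left and DKO on the right, 1 point per cell, primitive cells coloured and definitive cells grey. The primitive cells lie to the right of the dotted line at 50%, mostly above 75%, and the definitive cells lie almost entirely under 5%.

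Within the embryonic β-like transcripts Hbb-y was by far the larger. Hbb-y, on the reverse strand of chromosome 7 (103851749 to 103853216, mm10), took 52.1% of all UMIs in control and 51.7% in DKO primitive cells. Hbb-bh1, further along the same locus at 103841637 to 103843164, took 0.171% and 0.131% of all UMIs, or 0.327% and 0.253% of the embryonic β-like UMIs. Per cell the Hbb-bh1 share ran from 0 to 4.87% in control and from 0 to 3.39% in DKO. Hbb-bh2 was nearly unseen, with 2 and 1 UMIs.

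The 241 bases before the GENCODE start of Hbb-y are shown because this gene defines the cells. Capitals mark the words searched for on both strands, a GATA word (AGATAA or TGATAA, or either with G as its last letter) and the words CACCC, which Krüppel-like factors bind, and CCAAT. The sequence, from RefSeq's mm10 annotation (GRCm38.p6), reads 5′ to 3′ on the strand of the gene.

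Hbb-y, chr7:103853217-103853457 (-): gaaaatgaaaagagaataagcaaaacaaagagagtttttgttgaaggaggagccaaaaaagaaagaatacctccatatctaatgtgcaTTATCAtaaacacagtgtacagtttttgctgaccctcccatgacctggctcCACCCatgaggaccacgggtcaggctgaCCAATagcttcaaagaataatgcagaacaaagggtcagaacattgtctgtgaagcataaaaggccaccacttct

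A GATA word started 162 bases before the RefSeq start, CACCC 111 and CCAAT 83. The printed stretch stops short of that start, where the GENCODE exon begins, so these distances exceed those counted to its end. Among 32851 mouse promoters, 26.5% held such a GATA word, 52.01% CACCC and 33.9% CCAAT in either direction.

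The α-like globins were more mixed. Hba-x, on chromosome 11 (32276400 to 32278116, mm10), held 17.5% of α-like UMIs in control and 18.1% in DKO primitive cells, against 0.0583% and 0.0601% in definitive cells. Single cells covered a wide range, from 2.71% through a median of 16.3% to 51.3% in control and from 2.50% through 17.1% to 56.3% in DKO. The spread between primitive cells was an SD of 7.61 percentage points in control and 9.65 in DKO, whereas counting alone would give 0.862 and 0.967. The β-like genes held 69.3% and 67.4% of all α-like and β-like UMIs.

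The adult β-globins of primitive cells varied widely from cell to cell. Over all cells, Hbb-bt held 46.9% of adult β-globin UMIs in control and 33.9% in DKO primitive cells, against 33.6% and 29.99% in definitive cells. Among primitive cells with at least 50 adult β-globin UMIs the SD of this share was 25.2 points in 794 control cells and 21.7 in 276 DKO cells, where counting alone would give 2.49 and 2.88. In definitive cells the SD was 4.998 and 4.50 points. In control, 54 primitive cells had under 10% Hbb-bt and 59 had at least 90%. In DKO these numbers were 27 and 3, and no definitive cell of either library fell in either range. Primitive cells had fewer adult β-globin UMIs to divide, a median of 562.5 and 428 per cell against 4163 and 3495 in definitive cells.

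**Figure D3:**
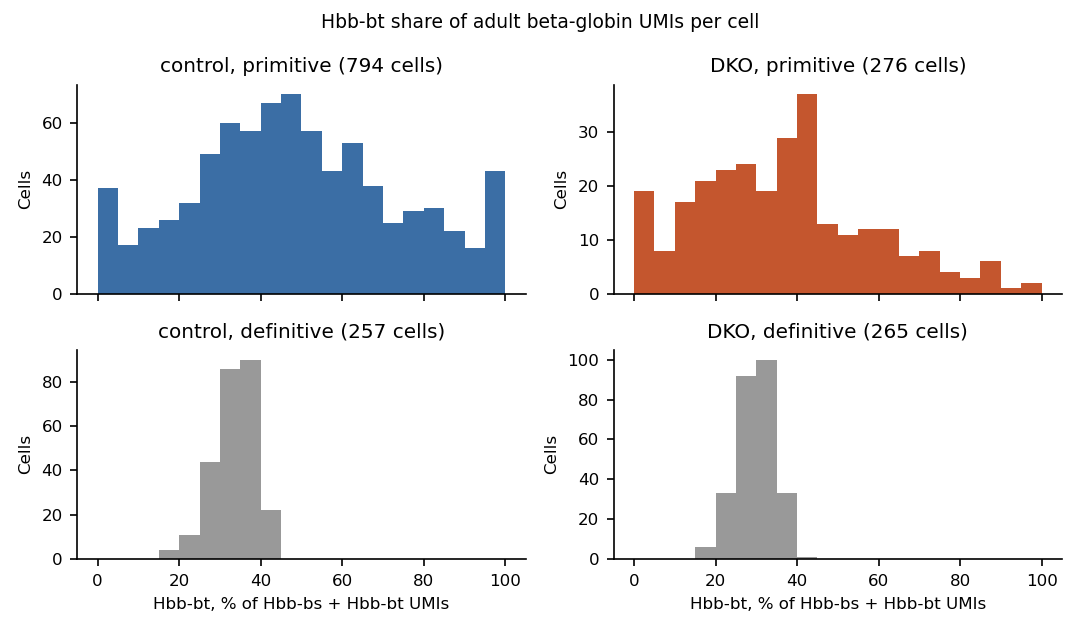
Number of cells (y axis) by the Hbb-bt share of Hbb-bs plus Hbb-bt UMIs (x axis, percent, bins of 5) for cells with at least 50 such UMIs, control on the left, DKO on the right, primitive cells above in colour and definitive cells below in grey. Primitive cells cover the whole axis, with SDs of 25.2 and 21.7 points, and definitive cells form 1 narrow peak with SDs of 4.998 and 4.50 points.

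Primitive cells were a smaller part of the DKO library than of the control library. They were 8.24% [7.70 to 8.80] of kept control cells and 2.34% [2.08 to 2.62] of kept DKO cells. Definitive cells differed less, at 2.62% [2.31 to 2.95] and 2.18% [1.93 to 2.46]. Primitive cells therefore made up 75.9% [73.2 to 78.4] of kept control and 51.7% [47.5 to 55.98] of kept DKO red blood cells. The limit on genes per cell had removed 162 control and 269 DKO cells that met the definitive rule. It had removed 57 and 52 that met the primitive rule. These shares hold for kept cells only and depend on that limit. With 1 embryo per genotype, genotype, embryo and the amount of blood that came along in dissection cannot be told apart.

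Primitive cells carried more UMIs than definitive ones, whose median was 6627 in control and 5921 in DKO, and most were globin. The median was 9073 UMIs per cell in control (1144 to 19264) and 7238 in DKO (956 to 16029), of which 1234 and 867.5 were non-globin. They had a median of 419 and 328.5 genes. The DKO library as a whole was shallower, with a median of 5787 UMIs per deposited cell against 7486. After thinning every cell to 2000 UMIs the primitive cells had 149.5 genes in control and 137 in DKO, and after thinning to 300 non-globin UMIs they had 155 and 157. Thinning to 2000 UMIs left out 7 and 8 cells.

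Mitochondrial transcripts were scarce in primitive cells. They took a median of 0.615% of non-globin UMIs in control and 0.561% in DKO primitive cells, against 4.18% and 3.21% in definitive cells. Summed over 13 transcripts the log2 ratio of primitive to definitive cells was -1.82 in control and -1.33 in DKO. Transcripts of ribosomal proteins, the parts of the translation machinery, went the other way, with medians of 24.1% and 25.97% in primitive cells and 14.5% and 16.8% in definitive cells.

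Among non-globin genes at least 2-fold enriched over cells under 10% globin, the most abundant transcripts of primitive cells stored iron. Genes short of that limit, most ribosomal protein genes among them, were not ranked. CPM leave 10 hemoglobin genes out of the total. Fth1, the ferritin heavy chain, stood at 91814 CPM in control and 72701 CPM in DKO, and Ftl1, the light chain, at 62163 and 72437. Malat1, a long RNA that stays in the nucleus, followed at 48898 and 37684. Next came Tpt1 (translationally controlled tumour protein, 23527 and 23907), Nudt4 (a hydrolase of inositol pyrophosphates, 25286 and 16528) and Prdx2 (the red cell peroxiredoxin, 15789 and 11704). Gm42418 (25166 and 17277) overlaps ribosomal RNA repeats, so its level is uncertain, and some Ftl1 reads may have gone to the near copy Ftl1-ps1.

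Malat1 separated the cell kinds. Malat1 stood at 11065 CPM in control and 8012 CPM in DKO definitive cells, and the log2 ratio of primitive to definitive cells was 2.14 [2.08 to 2.21] and 2.23 [2.16 to 2.31]. After thinning to 300 non-globin UMIs per cell, which left out 2 control definitive cells and no primitive cell, a Malat1 UMI was seen in 99.4% and 97.5% of primitive cells, in 32.9% and 40.8% of definitive cells and in 85.7% and 89.7% of cells under 10% globin. Without thinning the shares in primitive cells were 99.9% and 99.3%, and in definitive cells 47.9% and 55.5%.

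Primitive and definitive cells of the same library were then compared over 419 non-globin genes that were enriched in red blood cells. A gene was called when its levels differed 2-fold or more in the same direction in both libraries. Primitive cells were higher for 76 genes (18.1%) and lower for 128 (30.5%), and the median log2 ratio over all 419 was -0.41 in control and -0.48 in DKO. Tal1, Slc38a2 and Hmox1 stood among the higher genes, and the heme synthesis genes, Slc25a37, Gpx1 and E2f2 among the lower. Centred on the median ratio of each library, the counts were 101 higher and 95 lower, so that the split depended on the scaling.

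**Figure D4:**
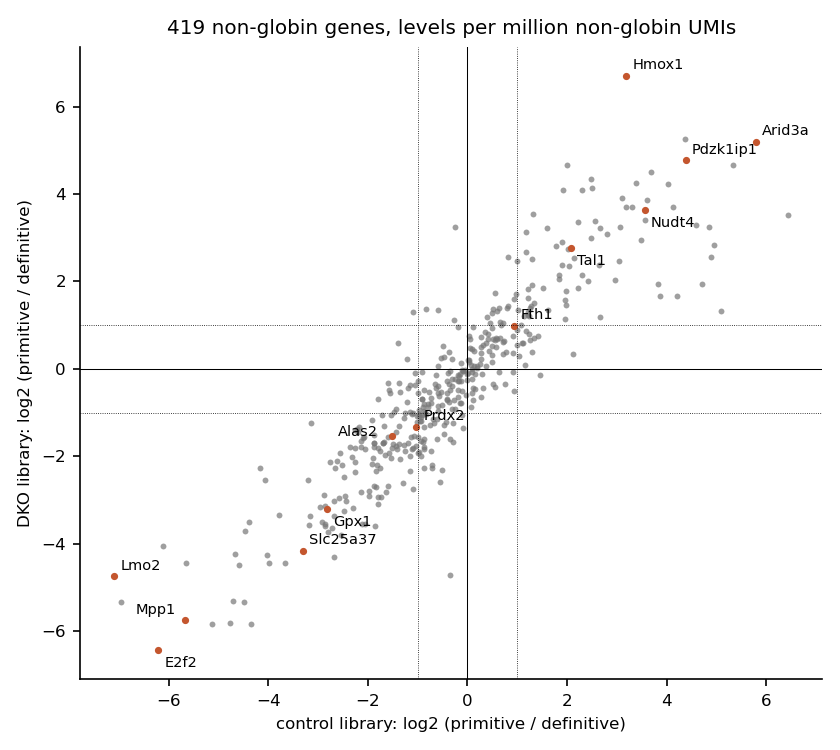
Log2 ratio of primitive to definitive cells for 419 non-globin genes, control library on the x axis and DKO library on the y axis, 1 point per gene, dotted lines at 2-fold, named genes in orange. Arid3a, Pdzk1ip1, Nudt4, Tal1 and Hmox1 lie at the upper right, and Gpx1, Mpp1 and E2f2 at the lower left.

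Several of the highest ratios belonged to genes nearly missing from definitive cells. Arid3a, an AT-rich DNA-binding factor, had 291 UMIs in control primitive cells and 54 in DKO, but 1 in the definitive cells of each library, for log2 ratios of 5.79 [3.30 to 11.10] and 5.20 [2.66 to 10.53]. Fam174b had 640 and 111 UMIs and 0 in definitive cells, for log2 ratios of at least 5.34 and 4.66 with 3 UMIs taken for the definitive cells of each library. Bcor, a corepressor partner of BCL6, stood at 429.9 and 295 CPM in primitive cells, with 1 and 5 UMIs in definitive cells. Slc38a2, a transporter of neutral amino acids, stood at 1215 and 1356 against 73.99 and 72.1. Nudt4 stood at 2146 and 1339 in definitive cells, for log2 ratios of 3.56 [3.42 to 3.70] and 3.63 [3.45 to 3.81]. Bnip3, which marks mitochondria for removal, stood at 258.5 and 267, with 0 and 4 UMIs in definitive cells. Cited4, a transcriptional coactivator, stood at 759 and 699 against 59.2 and 30.9, and Hsd3b6, a steroid dehydrogenase, at 843 and 826 against 69.1 and 56.6.

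Hmox1, the oxygenase that breaks down heme, stood at 1434 in control and 2157 in DKO primitive cells but at 158 and 20.6 in definitive cells. A Hmox1 UMI was seen in 28.1% and 33.1% of primitive cells thinned to 300 non-globin UMIs, in 1.18% and 1.13% of definitive cells and in 0.25% and 0.40% of cells under 10% globin. Unthinned, the shares were 53.5% and 54.6% in primitive cells.

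Of 20 erythroid transcription factors listed, 7 could be compared, with 2 higher and 3 lower in primitive cells, where 18.1% and 30.5% of all 419 genes were. Tal1, a basic helix-loop-helix factor of blood formation, stood at 753 and 453 in primitive cells and at 178 and 66.9 in definitive cells. Its relative Lyl1 stood at 149 and 87.8 against 39.5 and 5.15. Klf1, the erythroid Krüppel-like factor, was lower, at 49.6 and 31.6 against 247 and 129, and so was Zfpm1, the partner of GATA1, at 60.9 and 31.6 against 192 and 124. Lmo2, which bridges TAL1 and GATA1, had 3 UMIs in the primitive cells of each library and 78 and 55 in definitive cells, for log2 ratios of -7.10 [-9.41 to -5.50] and -4.75 [-7.07 to -3.13]. Gata1 itself had 23 and 8 UMIs in primitive cells and was not compared. Sox6, a repressor of embryonic globin in definitive cells, had 0 UMIs in primitive cells and 30 and 25 UMIs in definitive cells, for log2 ratios of at most -5.72 and -3.61 with 3 UMIs taken for the primitive cells of each library.

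Tal1 and Pdzk1ip1, a small membrane protein, lie side by side on the forward strand of chromosome 4 (mm10), at 115056426 to 115071755 and 115088708 to 115093899, with 16952 bp between them. Pdzk1ip1 stood at 1646 in control and 1420 in DKO primitive cells against 78.9 and 51.5 in definitive cells, for log2 ratios of 4.38 [3.68 to 5.19] and 4.79 [3.89 to 5.86], and those of Tal1 were 2.08 and 2.76. Both of these neighbours were thus higher in primitive cells of both libraries. The 250 bases before each start, again from RefSeq's mm10 annotation with the same words in capitals, are shown for these neighbours that moved together.

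Tal1, chr4:115056176-115056425 (+): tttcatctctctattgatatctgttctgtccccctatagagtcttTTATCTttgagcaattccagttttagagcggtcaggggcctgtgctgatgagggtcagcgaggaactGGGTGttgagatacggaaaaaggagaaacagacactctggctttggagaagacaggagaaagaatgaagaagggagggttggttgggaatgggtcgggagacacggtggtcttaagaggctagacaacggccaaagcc
Pdzk1ip1, chr4:115088458-115088707 (+): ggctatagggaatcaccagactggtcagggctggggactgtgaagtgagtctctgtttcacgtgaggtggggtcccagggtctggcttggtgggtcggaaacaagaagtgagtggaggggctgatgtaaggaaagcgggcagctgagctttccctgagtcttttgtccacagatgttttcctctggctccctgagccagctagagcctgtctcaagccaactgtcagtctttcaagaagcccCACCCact

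The Tal1 stretch held a GATA word 205 bases and CACCC 138 bases before the start, both read on the opposite strand (TTATCT and GGGTG). The Pdzk1ip1 stretch held CACCC 8 bases before the start with none of the GATA words among these letters.

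Heme synthesis was lower in primitive cells. Of 14 listed genes 8 were compared, with 7 lower and 1 higher, where 30.5% and 18.1% of all 419 genes were. The summed level was 5223 and 3932 against 15780 and 14762 in definitive cells. Alas2, the erythroid enzyme of the first step, stood at 2206 and 2010 against 6275 and 5818. Urod, uroporphyrinogen decarboxylase, stood at 257 and 165 against 1648 and 1339. Fech, which inserts the iron, stood at 1044 and 759 against 2254 and 2693. The higher member was Abcb10, a transporter of the inner mitochondrial membrane, at 287.5 and 126.5 against 118 and 46.3.

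Of 7 compared iron genes, 5 were lower and none higher, where 30.5% of all 419 genes were lower. Slc25a37, the mitochondrial iron importer, stood at 386 and 235 in primitive cells against 3808 and 4212 in definitive cells, and Tfrc, the transferrin receptor, at 75.9 and 73.8 against 355 and 190.5. Fth1, just short of 2-fold, had log2 ratios of 0.94 and 0.99, and Ftl1 of 0.71 and 0.62.

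Of 15 membrane and skeleton genes compared, 5 were lower, near the 30.5% of all 419 genes, and 1 was higher. The Rh genes Rhag (44.02 and 14.1 against 192 and 165) and Rhd (196 and 70.3 against 1490 and 793) were among the lower. Xk, a membrane protein of the Kell complex, was the higher member, at 321 and 130.0 against 69.1 and 36.04. Slc4a1 (band 3, the anion exchanger) did not pass in both libraries, with log2 ratios of -0.87 and -1.83.

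Of 13 oxidant defence genes compared, 3 were higher and 4 lower, near the shares of all 419 genes (18.1% and 30.5%). Gpx1, glutathione peroxidase, stood at 3439 and 2600 in primitive cells against 24231 and 24148, and Prdx2 at 15789 and 11704 against 32464 and 29323. Sod1, superoxide dismutase, was higher at 422 and 601 against 182.5 and 257, as was Selenow, a selenoprotein, at 2682 and 2551 against 1144 and 1097. Blvrb, biliverdin reductase B, had log2 ratios of 0.14 [0.06 to 0.22] and 0.06 [-0.05 to 0.16].

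Mitosis genes were thinly seen in primitive cells. Over 33 listed genes the summed level was 966 in control and 1079 in DKO primitive cells against 5594 and 4557 in definitive cells, and 2 of the 3 that could be compared were lower. Ube2c, the ubiquitin-conjugating enzyme of mitotic exit, stood at 59.00 and 94.9 against 2984 and 2080, Nusap1, a spindle protein, at 13.1 and 10.5 against 360.1 and 597, and the cell cycle factor E2f2 at 9.37 and 7.03 against 695.5 and 613. Its partner Tfdp2 stood at 76.8 and 52.7 against 2023 and 2106. Mpp1, a membrane scaffold, was also low in primitive cells (21.5 and 17.6 against 1095 and 952.5). Organelle clearance had 5 of 16 compared genes lower, near the 30.5% of all genes, and none higher, among the lower Gabarapl2 of the autophagy pathway (529 and 499 against 2536 and 2569). Of the other lists, Car2 (carbonic anhydrase, 2506 and 2428 against 6511 and 6040) was lower as the only ion transport gene compared, Hemgn was the 1 lower of 3 progenitor genes, 1 of 2 energy genes was lower, and Cd24a and Bsg were the 2 lower of 3 definitive markers, while neither of 2 chromatin genes was called.

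Among themselves, primitive cells were compared by how much βh1 they still held. In each library the upper and the lower tertile by the Hbb-bh1 share of embryonic β-like UMIs were set side by side, 269 and 269 cells in control and 94 and 94 in DKO. The upper tertile held 0.788% Hbb-bh1 in control and 0.658% in DKO, and the lower 0.0330% and 0.0264%. Of 362 genes, 12 (3.31%) were 2-fold or more higher in the upper tertile of both libraries and 0 (0%) were lower, about a median log2 ratio of 0.21 and 0.25. Cells of the upper tertile also held more Hba-x, at 21.7% against 13.9% of α-like UMIs in control and 21.3% against 15.7% in DKO, and they had more genes, at a median of 464 against 363 and 351.5 against 312. The part of this depth difference in the gene ratios was not tested.

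Some genes of that upper tertile were ones that were low in primitive cells as a whole. Gpx1 had log2 ratios of 1.73 and 1.09 between the tertiles and Cpox, an enzyme of heme synthesis, of 1.51 and 1.88. Rnh1, an inhibitor of ribonucleases, had the highest smaller ratio, at 1.62 and 2.16. Pop5, a subunit of RNase P, had 1.56 and 1.48, and Lmna, the A-type lamin of the nuclear envelope, 1.09 and 1.77. The lowest values were those of Bcor, at -0.65 and -0.95. Cut instead by the Hba-x share of α-like UMIs, 6 genes (1.66%) were higher and 0 (0%) lower, and Rnh1, Pop5, Mt2, Lmna and C1qtnf4 were among the 6.

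DKO and control primitive cells were compared over 362 non-globin genes. 1 gene was 2-fold or more higher in DKO (0.276%) and 50 were lower (13.8%), and the median log2 ratio was -0.31. The minimum of 100 UMIs was summed over the libraries, with 1067719 non-globin UMIs in control and 284606 in DKO primitive cells. A gene high only in control thus passed at a lower level than one high only in DKO, which favours genes called lower. The genes lower in DKO included Slc4a1 (band 3) and other membrane genes, and Alad of heme synthesis. With every ratio taken relative to the median, 7 genes were higher and 24 lower. In definitive cells the same 362 genes had a median of -0.21, and in cells under 10% globin it was 0.09. The 50 lower genes were of low count, with a median of 196 UMIs in control and 21 in DKO. All 50 intervals lay below 0, but the genes were chosen on this same ratio, so this adds no support. In definitive cells, where 42 of the 50 had a ratio, 34 were below 0 and 9 were 2-fold or more lower, with a median of -0.41. Of all 362 genes, 340 had a ratio in definitive cells, with 230 below 0 and 43 lower by 2-fold or more. In cells under 10% globin the 50 genes had a median of -0.07, with 27 of 48 below 0, where all genes had 138 of 360 below 0.

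**Figure D5:**
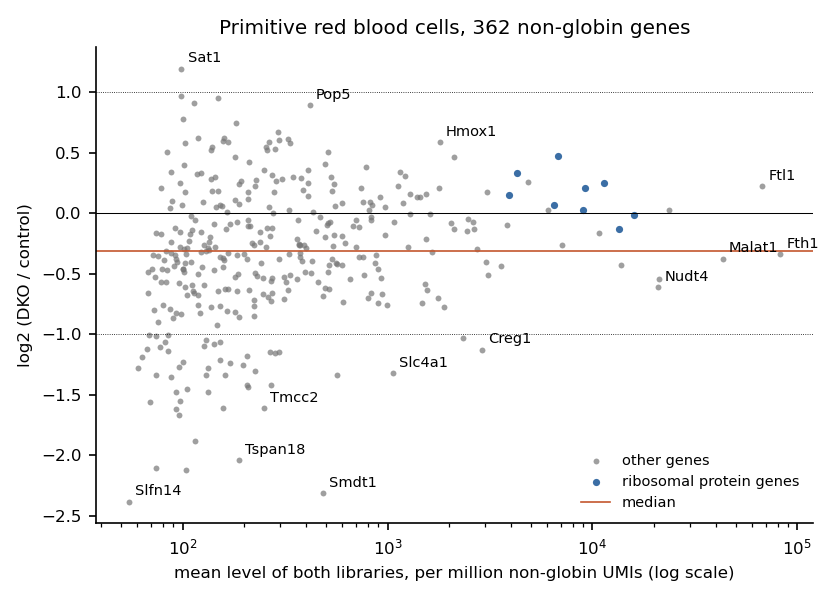
Log2 ratio of DKO to control in primitive cells (y axis) against the mean level of both libraries (x axis, CPM, log scale) for 362 non-globin genes, 1 point per gene, ribosomal protein genes in blue, dotted lines at 2-fold. The orange line is the median at -0.31, with 50 genes under the lower dotted line and Sat1 above the upper one.

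Slfn14, an endoribonuclease of blood cells, had the lowest ratio, with 98 UMIs in control and 5 in DKO, a log2 ratio of -2.39 [-4.04 to -1.11]. Smdt1, a subunit of the mitochondrial calcium uniporter, stood at 803 in control and 162 in DKO, or -2.31 [-2.77 to -1.88], and in definitive cells at 365 and 144, or -1.34 [-2.02 to -0.70]. Prdx3, a mitochondrial peroxiredoxin (145 and 45.7), and Pitrm1, a mitochondrial peptidase (140.5 and 45.7), were also among the lowest 10. Others there were the chemokine receptor Ackr3 (169 and 38.7), the tetraspanin Tspan18 (303.5 and 73.8), the LIM homeodomain factor Lmx1a (182 and 49.2), Fbxo9 (121 and 28.1), Tmcc2 (376 and 123) and the kinase Dyrk3 (236 and 77.3). Creg1, among the 20 most abundant of the genes compared, stood at 3965 and 1813, a log2 ratio of -1.13.

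Membrane and skeleton genes were lower in DKO as a list. Of 12 compared, 7 were 2-fold or more lower in DKO and none higher, where 13.8% of all 362 genes were lower. The median log2 ratio was -1.05, against -0.31 over all 362. The summed level went from 5179 to 2684, a log2 ratio of -0.95 [-1.06 to -0.84] against -0.34 in definitive cells. The 7 were Slc4a1, Rhd, Ermap, Cldn13, Xk, Epb42 and Tspan33. Slc4a1 stood at 1510 and 604, a log2 ratio of -1.32, and at 2753 and 2147 in definitive cells. Epb42, which ties band 3 to the skeleton, stood at 188 and 77.3. A Slc4a1 UMI was seen in 33.1% of control and 11.97% of DKO primitive cells thinned to 300 non-globin UMIs, against 36.1% and 30.6% of definitive cells and, unthinned, in 70.8% and 33.1% of primitive cells. Of the cells under 10% globin, 0.524% and 0.0698% held one unthinned.

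Heme synthesis had 3 of 8 genes lower, among them Alad (239.8 and 102) and Abcb10 (287.5 and 126.5), while Alas2 stood at 2206 and 2010. The summed log2 ratio of the list was -0.41 [-0.50 to -0.32] against -0.10 in definitive cells. Of the transcription factors 1 of 5 was lower, Nfix at 110.5 and 52.7, and Tal1 had a log2 ratio of -0.73. Bcl2l1, which protects red cell precursors from death, was the 1 lower of 2 progenitor genes at 305 and 112, and Ube2o and Rsad2 were the 2 lower of 15 organelle clearance genes, near the 13.8% of all genes. None of 5 iron, 12 oxidant defence, 9 ribosomal protein, 2 cell cycle, 2 chromatin, 1 energy, 1 ion transport and 1 definitive marker genes was called either way.

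Sat1 was the only gene called higher in DKO. Sat1, the acetyltransferase of polyamine breakdown, stood at 59.9 and 137, a log2 ratio of 1.19 [0.58 to 1.79] from 64 and 39 UMIs. Short of 2-fold, Pop5 stood at 291 and 541, or 0.89 [0.61 to 1.18], and the metallothionein Mt2 at 226 and 358, or 0.67 [0.32 to 1.01]. Hmox1 had a log2 ratio of 0.59. Ribosomal protein transcripts, summed over 105 genes, had a log2 ratio of 0.10 [0.09 to 0.11], and mitochondrial transcripts 0.22 [0.17 to 0.27].

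The cells that stood apart by Hba-a2 changed these counts little. Without them 47 genes were lower, 1 was higher and the median was -0.31, the comparison with definitive cells gave 75 higher and 129 lower genes, and primitive cells were 7.77% of control and 2.31% of DKO cells. Inside the control library, the 50 cells that stood apart had the 50 DKO-lower genes at a median log2 ratio of -0.85 to the other 759 cells, with 40 of them below 0, where all 362 genes had -0.12 with 214 below 0. The 50 genes had been picked as higher in control, where these 759 cells are the bulk, so the choice itself can push this ratio below 0. Whether the 50 cells resemble DKO cells was not tested. Single genes rested on few UMIs there. Smdt1 stood at 495 in the 50 and 820.5 in the 759, and Tmcc2 at 102 and 391. Pop5 stood at 922 and 255, and Cd9, a tetraspanin, at 358.5 and 78.3.

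RNA of other eye cells was present at a low level in the primitive cells and differed between the libraries. The 20 retinal progenitor and neuron markers summed to 676 in control and 1314 in DKO primitive cells, which was 9.05% and 16.6% of their level in cells under 10% globin, with none of the 20 at 0. The 8 lens markers stood at 1233 and 794, or 17.02% and 34.7%, with 0 and 1 of the 8 at 0. The 10 neuron markers alone had a log2 ratio of 1.42 [1.16 to 1.68] in primitive cells and 0.67 in cells under 10% globin. Macrophage markers held 7 and 10 UMIs in all with 4 and 2 of 8 at 0, pigment epithelium markers 4 and 6 with 4 and 2 of 6 at 0, endothelial markers 17 and 6 with 4 and 3 of 6 at 0, and megakaryocyte and platelet markers 35 and 3 with 3 and 7 of 8 at 0. The megakaryocyte and platelet markers exceeded their level in cells under 10% globin, at 32.8 against 4.73 CPM in control. In DKO these markers stood at 10.5 against 3.97 CPM, and definitive cells held 0 control and 1 DKO UMIs of them. With the levels of the cells under 10% globin subtracted in proportion to the retinal markers, 5 genes were higher and 41 lower in DKO. Imprinted and growth genes gave no gene to compare, with a summed log2 ratio of 0.07 [-0.20 to 0.34].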

How the data were processed

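Eyecups were dissociated with papain and captured with the 10x Chromium Single Cell kit. The authors mapped reads to mm10 with Cell Ranger 3.1.0, per the submitters' processing notes, and deposited UMI counts per gene and called cell, integers without normalization. The libraries held 85589515 (control) and 85173276 (DKO) UMIs in 10315 and 12672 cells. The study's filter left 9822 and 12146 cells. The globin rule, the compared groups and the gene lists were chosen with earlier results of these data known.

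Levels (CPM) are UMIs summed over the cells of a group and scaled to a non-globin total of 1000000 (from 1067719 control and 284606 DKO UMIs for primitive cells), with 10 hemoglobin genes left out. Genes were compared when the groups' mean level was at least 50 CPM and at least 2 times that of cells under 10% globin, with at least 100 UMIs in all. A gene was called at 2-fold or more, in both libraries where a comparison was made within libraries. Intervals (95%) are exact binomial for shares and from the exact binomial split of UMIs for ratios. A group without a UMI was taken at 3 UMIs for a bound, and no ratio was formed where both groups held 3 or fewer. Since each genotype had 1 library, no test and no p-value was computed. Named genes were the hemoglobin genes, members of the lists, the 20 most abundant of the genes compared between DKO and control, and the 10 highest and lowest ratios of each comparison. Tal1 and Pdzk1ip1 were set together as neighbours, and Xist and the Y-linked genes were counted, after values were seen. Some genes that this rule names are not reported here.

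Scrublet (through scanpy 1.11.5) gave each cell a doublet score, and the automatic threshold called 0 control cells, so that the threshold of the DKO library, 0.2253, was applied to both and called 3.05% and 2.71% of cells, 7 of them control primitive cells and 0 DKO primitive cells. They were kept in the main values. Thinning drew UMIs at random. Python 3.11.15, numpy 2.4.6, scipy 1.17.1, pandas 2.3.3 and matplotlib 3.10.9 were used, and the ratio code was tested on simulated data. Gene positions came from GENCODE M21 and promoters from RefSeq (GRCm38.p6). Alternatives were other totals, centring, background subtraction, the mean over cells, other count minimums, a pseudocount, globin limits of 50% and 70%, no cell filter, doublets left out and other thinning. Leaving out the cells that stood apart by Hba-a2 and tertiles by Hba-x were chosen after seeing the data. Reads mapping to near-identical copies (Hba-a1 and Hba-a2, Hbq1a and Hbq1b, Ftl1 and Ftl1-ps1) may be assigned to either copy.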

Additional observations from a re-analysis of the deposited data

Results flagged for a closer look

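5 genes were higher in DKO than in control among primitive cells and lower among definitive cells, with counting intervals that lay on opposite sides of 0. Of the 362 genes compared between DKO and control, 340 had a ratio in definitive cells, so these 5 are a few picked from many. The difference between the cell kinds was not tested, since each genotype had 1 library. Fam212a had a log2 ratio of 0.907 in primitive cells, from 84 control and 42 DKO UMIs, and of -2.60 [-5.00 to -0.84] in definitive cells, from 19 and 3 UMIs. Pop5, a subunit of RNase P, had 0.894 and -1.05. Mt2, a metallothionein, had 0.667 and -1.52 [-2.21 to -0.88]. Hmox1, heme oxygenase, had 0.589 in primitive cells and -2.94 in definitive cells, where it held 32 control and 4 DKO UMIs. These UMIs came from few cells, 1.95% of control and 1.13% of DKO definitive cells unthinned, which the counting interval does not cover. Rnh1, an inhibitor of ribonucleases, had 0.546 and -1.20, from 24 and 10 UMIs in definitive cells.

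Some cells removed by the limits on genes and mitochondrial UMIs also met the rule for primitive cells. There were 57 such cells in control and 52 in DKO, and all had 200 genes or fewer. Their median was 1869 UMIs in control and 1564 in DKO, and embryonic transcripts made up 87.7% and 90.5% of their β-like UMIs.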

How the results depend on the processing

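No paired analysis was possible because only 1 library stood for each genotype and the replicate numbers mark no shared sample. The share of primitive cells in the DKO library was 2.34% and became 2.65% with no cell filter, while the control share ran from 7.77% to 8.42% over the alternatives. Of the DKO to control counts (1 higher, 50 lower), the higher count was 2 without ribosomal protein and mitochondrial genes, 2 with the mean of the cells' levels, 2 with a globin limit of 70%, 5 with background subtracted and 5 with a minimum of 30 UMIs. Centred on the median ratio it was 7 with 24 lower, and with a minimum of 300 UMIs, which left 194 genes, it was 0 with 16 lower. That minimum left 250 genes for primitive against definitive cells, with 42 higher (76 in the main setting) and 71 lower (128). For the tertiles by Hbb-bh1 the 12 higher genes became 31 with levels per all UMIs, 7 when centred, 5 with at least 300 UMIs and 6 with tertiles by Hba-x. The median DKO to control ratio ran from -0.395 to -0.210 other than when centred. Of 660 values of named genes under alternatives, 639 moved by less than their counting interval and 21 moved by more. Among those of 2-fold or more in the main setting, 0 changed sign, and sign changes of smaller ratios were not counted. The DKO primitive cells held a median of 867.5 non-globin UMIs per cell against 1234 in control, and 284 cells against 809, so ratios of low genes had wide intervals.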
